A study of Mus musculus with 25 samples.

Results

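The MHC class II presentation genes described here were Cd74, H2-Aa, H2-Ab1, H2-Eb1, H2-DMa, H2-DMb1, Ciita and Ctss, picked by symbol. All 8 were among the 13266 genes of the expression table, and all 8 passed the filter on low values. They were measured by RNA-seq in 25 libraries of mouse peritoneal macrophages, the resident phagocytes of the abdominal cavity, from untreated mice of 6 genotypes, labelled Day 0. WT had 5 libraries, and SAMHD1 KO, MDA5 KO, RIG-I KO, the SAMHD1 MDA5 double knockout (DKO) and the SAMHD1 RIG-I DKO had 4 libraries each. SAMHD1 degrades deoxynucleotides, and MDA5 (gene Ifih1) and RIG-I (gene Ddx58) sense RNA in the cytosol. Samhd1 is lost in 3 of the genotypes, and the design asks whether effects of that loss need either sensor. The labels do not give age, sex, strain or the alleles. The titles of the SAMHD1 KO samples name the line DEL in 2 cases and KO in 2, and the columns could not be told apart by that name.

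MHC class II molecules present peptides from engulfed material to CD4+ T cells. The α and β chains (H2-Aa with H2-Ab1 for the A molecule, H2-Eb1 for the E molecule) assemble on the invariant chain Cd74, which blocks the groove. Cathepsin S (Ctss) trims Cd74 to a short remnant, and H2-DM (H2-DMa with H2-DMb1) exchanges that remnant for peptide. Ciita is the co-activator that switches on the class II genes, and in macrophages it is classically induced by interferon gamma. Large peritoneal macrophages of unstimulated mice carry little class II, while small peritoneal macrophages, dendritic cells and B cells carry much more.

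Ciita does not bind DNA itself. It docks on factors held at a pair of short elements upstream of class II genes, the X box (with an adjoining X2 box) and the Y box. RefSeq promoters of 5 of the 8 members were at hand (GRCm38.p6). Those of 3 members with such elements, and that of Ctss as a member without them, are shown because the 8 genes are described below by whether they moved together. The 150 bases before the start site of each are printed 5′ to 3′ on the gene's strand, with matches in capitals.
H2-Eb1: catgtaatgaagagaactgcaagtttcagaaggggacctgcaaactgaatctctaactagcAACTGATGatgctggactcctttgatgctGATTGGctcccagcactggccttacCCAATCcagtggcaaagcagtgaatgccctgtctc
H2-DMb1: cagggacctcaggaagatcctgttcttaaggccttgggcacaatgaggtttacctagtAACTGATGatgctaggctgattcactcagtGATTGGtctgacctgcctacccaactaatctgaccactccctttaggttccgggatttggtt
H2-Aa: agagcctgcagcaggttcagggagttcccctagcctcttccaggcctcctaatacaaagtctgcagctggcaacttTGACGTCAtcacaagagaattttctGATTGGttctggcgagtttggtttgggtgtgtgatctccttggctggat
Ctss: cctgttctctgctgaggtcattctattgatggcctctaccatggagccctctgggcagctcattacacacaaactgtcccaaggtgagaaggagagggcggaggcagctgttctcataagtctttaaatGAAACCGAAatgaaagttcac
The windows lie at chr17:34305717-34305866 (plus strand), chr17:34153041-34153190 (plus strand), chr17:34287824-34287973 (minus strand) and chr3:95526636-95526785 (plus strand). Start sites here are those of RefSeq. For H2-DMb1 the gene position given below begins at 34153072, inside the window and upstream of both boxes. The other windows abut the gene positions given below. In H2-Eb1 a match to the X box core (AACNGATG, here AACTGATG) at position -89 was followed by a Y box (GATTGG) at -60, with 21 bases between them, and by its reverse complement at -35. H2-DMb1 had the same pair (AACTGATG at -92, Y box at -62) with 22 bases between. H2-Aa had an X2 box (TGACGTCA) at -74 and a Y box at -49, 17 bases apart. In the Ctss window the capitals mark an interferon response element (GAAANNGAA) at -21. Ctss held no X2 or Y box, and its 1 match to the X box core, at -207, lay outside the window. H2-DMa had only a Y box, upstream of 1 of its annotated starts. Both strands of each promoter, from 250 bases before to 50 after the start, were searched, and the matches named did not overlap. Of 32817 mouse promoters, 2.32% held the X box core, 1.79% the X2 box, 16.1% the Y box, 8.55% the interferon response element and 0.64% an X or X2 box together with a Y box. The motifs were written down after these promoters had been read, and a match is a description of letters, not of binding.

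Reads in the listed genes came to between 25886469 and 39590589 per library, with 16.05 to 19.17% of them in the top 10 genes. A principal component analysis set WT library 3 (-50.9) and SAMHD1 KO library 2 (-63.9) apart from the other libraries (-20.7 to 25.8) on its first axis, which held 20.3% of the variance. They also carry the last 2 library codes in the column names. Ifih1 had 0.871 to 14.9 normalized counts in the libraries without MDA5 and at least 1411 elsewhere, and Ddx58 had 194 to 304 without RIG-I and at least 1109.8 elsewhere. Samhd1 was intermediate in the libraries labelled SAMHD1 KO 2 (4767 normalized counts) and SAMHD1 MDA5 DKO 3 (4952), against 1069 to 1852 in the other SAMHD1-deficient libraries. All 15 markers of large peritoneal macrophages were measured, with summed normalized counts of 870467 to 1170370 per library, so the label was met. The labels do not say that libraries came from separate animals, so the p-values cover only the spread among the samples, which may be technical. In bulk RNA, fewer cells of a type and less RNA per cell cannot be told apart. Library numbers follow the columns and serve only as names.

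Per kilobase of annotated exon, Ctss was the most abundant member, with a mean normalized count per kilobase of 43712 (28333 to 57242 over the 25 libraries). Cd74 followed at 9797 (2977 to 57757). The chains were at 2356.95 for H2-Ab1 (678 to 13102), 1665 for H2-Eb1 (492 to 8818) and 1336 for H2-Aa (431 to 7735). These 3 chains overlapped in range, as did H2-DMa at 756 (527 to 1846) and H2-DMb1 at 754 (447 to 1709). Ciita was the lowest, at 11.9 (5.28 to 41.8). It was still covered by 51 to 383 reads per library. H2-DMb1 and H2-DMb2 are near-identical neighbours, so their split of reads is uncertain.

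The main pattern was between libraries and not between genotypes. All 8 genes reached their highest level in the same library, SAMHD1 MDA5 DKO library 1. In that library Cd74 stood at 96974 normalized counts, against 4999 in the lowest library (RIG-I KO 2), a 19.4-fold range. WT library 5 was the next highest for Cd74, H2-Aa, H2-Ab1, H2-Eb1 and Ctss, and MDA5 KO library 4 came after it for the first 4 of these.

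Cd74, the invariant chain (chr18:60803848-60812652, GRCm38), had normalized counts of 18799.7, 10394, 7006, 8929 and 52990.3 in the WT libraries. In SAMHD1 KO they were 13620.1, 6883, 6297 and 11178. In MDA5 KO they were 7404, 9465, 13239 and 29077. WT and MDA5 KO each held 1 library far above the rest, and SAMHD1 KO had none. The SAMHD1 MDA5 DKO libraries gave 96974, 10085, 21367 and 9909. RIG-I KO gave 10656, 4999, 8991 and 8346, and SAMHD1 RIG-I DKO gave 13575, 9127, 11032 and 10893. All 8 libraries without RIG-I lay between 4999 and 13575, against 6297 to 96974 in the other 17, and no genotype was separate from WT.

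H2-Aa, the α chain of the A molecule (chr17:34282744-34287823, minus strand), had the same libraries at the top. Its normalized counts were 5465, 3299, 1638, 2849.9 and 14916 in WT, 4234, 1713, 1818 and 2804 in SAMHD1 KO and 2540.2, 2872, 4171 and 9211 in MDA5 KO. They were 29377, 2949, 6383 and 3449.8 in SAMHD1 MDA5 DKO, 3632, 1720.4, 3096 and 3124 in RIG-I KO, with 4992, 3248, 3903 and 3482 for the SAMHD1 RIG-I DKO libraries. SAMHD1 MDA5 DKO library 1, WT library 5 and MDA5 KO library 4 led, and the genotypes overlapped.

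H2-Ab1, the β chain that pairs with it (chr17:34257689-34269419), had normalized counts of 6143, 4017, 1749, 3535 and 16496 in WT, 5205, 1741, 2362 and 3499 in SAMHD1 KO and 3344, 3619, 4550.4 and 10061 in MDA5 KO. The SAMHD1 MDA5 DKO libraries had 33647, 4125, 7726 and 4631, RIG-I KO 4703, 2678, 3717 and 3542 and the SAMHD1 RIG-I DKO libraries 6189, 4554, 4779 and 4706. WT library 3 and the library labelled SAMHD1 KO 2, which stood apart, were its lowest.

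H2-Eb1, the β chain of the E molecule (chr17:34305867-34316674), ranged from 956 in WT library 3 to 17142 in SAMHD1 MDA5 DKO library 1. Its group means were 3778 ± 3397 in WT (SD, n = 5), 2163 ± 1194 in SAMHD1 KO, 3012 ± 1783 in MDA5 KO, 6267 ± 7323 in SAMHD1 MDA5 DKO, 1856 ± 597 in RIG-I KO, with 2211 ± 369 for the SAMHD1 RIG-I DKO libraries (SD, n = 4 each). In SAMHD1 MDA5 DKO the SD was larger than the mean. The chain genes and Cd74 shared that property, since 1 library held most of the group's counts.

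H2-DMa (chr17:34119541-34139101) and H2-DMb1 (chr17:34153072-34160230), the peptide exchanger, varied less. H2-DMa had normalized counts of 2731, 2691, 1818, 2762 and 3575 in WT, 2339, 1852, 2174 and 2346 in SAMHD1 KO and 6364, 2598, 3135 and 2376 in SAMHD1 MDA5 DKO. H2-DMb1 had 1332, 1168, 797, 1414 and 1438 in WT, 1159, 751, 1114 and 1102 in SAMHD1 KO and 2873, 1298, 1381 and 1244 in SAMHD1 MDA5 DKO. For both genes each SAMHD1 MDA5 DKO library lay above each SAMHD1 KO library. Between these genotypes 11.2% of all genes tested did not overlap. In the other 3 genotypes H2-DMa spanned 1899 to 3668 and H2-DMb1 1008 to 1567.

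Ciita, the co-activator (chr16:10480059-10528418), had normalized counts of 183, 70.1, 67.0, 70.6 and 162 in WT, 196, 60.3, 66.6 and 139 in SAMHD1 KO and 59.0, 50.4, 69.5 and 229 in MDA5 KO. In SAMHD1 MDA5 DKO it had 398, 76.0, 142 and 57.8, in RIG-I KO 119, 65.1, 102 and 109, and the SAMHD1 RIG-I DKO libraries had 116, 54.99, 93.5 and 73.0. SAMHD1 MDA5 DKO library 1 was highest and MDA5 KO library 4 next, whereas SAMHD1 KO library 1 and WT library 1 were above WT library 5. Ciita over Cd74 was highest in SAMHD1 KO library 1 (0.0144), which also had the most B cell marker RNA of all libraries. The ratio was lowest in WT library 5 (0.00306), which had the most B cell marker RNA among WT libraries.

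Ctss, the protease (chr3:95526786-95556403), was the flattest member. It spanned 38477 to 77735 normalized counts over all libraries, a 2.02-fold range, and its lowest libraries were WT library 3 and SAMHD1 KO library 2. RIG-I KO had 58222, 50972, 53907 and 52994 and SAMHD1 RIG-I DKO had 62199.6, 66714, 60179.6 and 64284. Each of the 4 SAMHD1 RIG-I DKO libraries was above each of the 4 RIG-I KO libraries. Between these genotypes 4.93% of all genes tested did not overlap.

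**Figure D1:**
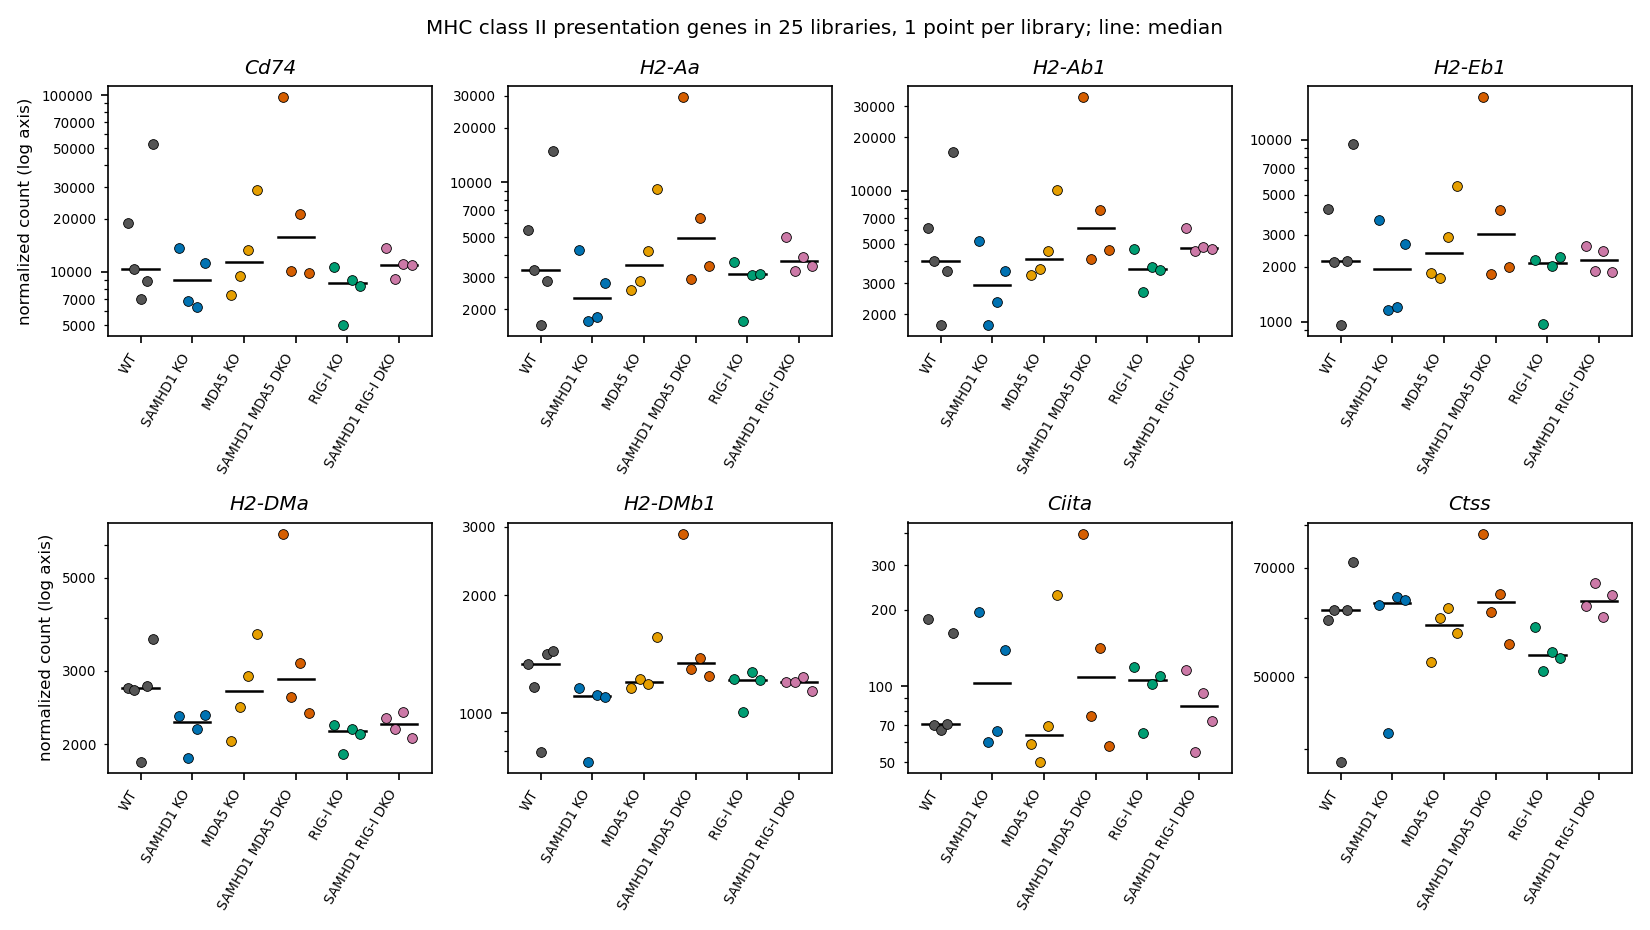
Normalized count of each member (log axis) in every library, by genotype, with 1 point per library and the group median as a line. The highest point of each panel is SAMHD1 MDA5 DKO library 1, and the genotypes overlap in nearly every panel.

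Across all 6 genotypes no member passed the F test (limma on log2 of normalized count + 1, Benjamini-Hochberg adjusted p under 0.05 over 13252 genes), while 9.87% of all genes did. H2-DMa came closest (adjusted p = 0.195) and Ciita was farthest (adjusted p = 0.914). Genotype accounted for 7.6% (Ciita) to 36.7% (H2-DMa) of a member's variance, against a median of 30.1% over all genes.

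The loss of SAMHD1 was compared with both sensors present, without MDA5 and without RIG-I. None of the 8 members was called in any of these 3 comparisons. The background was low too, at 0.0151% of genes called in SAMHD1 KO against WT, then 0.00755% in SAMHD1 MDA5 DKO compared with MDA5 KO and 0.0679% in SAMHD1 RIG-I DKO compared with RIG-I KO. Cd74 had a log2 fold change of -0.69 ± 0.59 (standard error) against WT, 0.74 ± 0.62 without MDA5 and 0.47 ± 0.62 without RIG-I. The corresponding adjusted p-values from limma were 0.965, 0.999 and 1. None of the 3 differences exceeded the SD of Cd74 within genotypes, pooled over all genotypes (0.93 log2 units). That SD was smaller in RIG-I KO (0.47) and SAMHD1 RIG-I DKO (0.23) alone, about or below the difference between them. The 95% interval of the first ran from -1.91 to 0.53 on the log2 scale, so that a decrease of more than 2-fold lies within it.

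Over the 8 members, the median log2 fold change was -0.42 in SAMHD1 KO against WT, where Ciita alone was above 0 (0.036). It was 0.59 in SAMHD1 MDA5 DKO against MDA5 KO, with 8 of 8 positive, and 0.27 in SAMHD1 RIG-I DKO compared with RIG-I KO, with 7 of 8 positive (Ciita at -0.24). The medians over all genes tested were 0.0042, 0.0020 and 0.0018. Without SAMHD1 MDA5 DKO library 1 the median in SAMHD1 MDA5 DKO against MDA5 KO was 0.022 (1.00 without MDA5 KO library 4), and H2-Aa, H2-Eb1 and H2-DMa had negative values (-0.026, -0.12 and -0.0095). The median in SAMHD1 KO against WT was -0.18 without WT library 5, -0.26 without the library labelled SAMHD1 KO 2 and -0.68 without WT library 3. Without RIG-I KO library 2 the median in the comparison without RIG-I was 0.12. The interactions of SAMHD1 loss with MDA5 loss (member median 0.86) and with RIG-I loss (0.62) passed for no member, and 0% of all genes passed either by limma (368 and 375 genes had an unadjusted p under 0.05). The effect of SAMHD1 loss on these genes is thus not shown to differ with either sensor.

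Ctss was the 1 member whose groups did not overlap in SAMHD1 RIG-I DKO compared with RIG-I KO, where this was true of 4.93% of genes. Its log2 fold change was 0.23 ± 0.15 (adjusted p = 1, limma). No member was separate in the other 2 comparisons of SAMHD1 loss, where 0.898% (with both sensors) and 2.72% (without MDA5) of all genes were.

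The loss of a sensor was compared with SAMHD1 present. In MDA5 KO against WT no member was called, with a background of 0.0679%, and the member log2 fold changes ran from -0.26 (Ciita) to 0.082 (H2-DMb1). Their median was -0.0075, with 4 of 8 positive, and leaving out 1 library moved it between -0.37 (without MDA5 KO library 4) and 0.22 (without WT library 5). In RIG-I KO against WT no member was called either, although 4.21% of all genes were. All 8 values were negative there, from -0.87 (Cd74, adjusted p = 0.369) to -0.035 (H2-DMb1, adjusted p = 0.932), with a median of -0.38 against 0.0029 over all genes. That median was -0.064 without WT library 5 and -0.63 without WT library 3. By the same test 9 of 10 B cell, 4 of 5 mast cell and 2 of 6 dendritic cell markers were called lower in RIG-I KO, and their part in the result was not tested.

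The largest member differences were between SAMHD1 MDA5 DKO and SAMHD1 KO, which differ in MDA5 with SAMHD1 lost in both. All 8 log2 fold changes were positive, with a median of 0.85 against -0.033 over all genes, and none passed, against 0.121% of all genes. H2-Ab1 was at 1.51 ± 0.59 (adjusted p = 0.132), H2-Aa at 1.42 ± 0.62 (adjusted p = 0.173) and Cd74 at 1.24 ± 0.62 (adjusted p = 0.223) by limma. H2-DMb1 had the smallest adjusted p, 0.0955, at 0.65 ± 0.21, followed by H2-DMa at 0.62 ± 0.23 (adjusted p = 0.115). The H2-DM genes were the 2 members whose groups did not overlap here, as was the case for 11.2% of all genes.

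Calls of members in this comparison depended on the test. In the authors' deposited table, SAMHD1 KO against SAMHD1 MDA5 DKO, 4 members had an adjusted p under 0.05, as had 6.62% of the genes there. That table gave H2-DMb1 a log2 fold change of -0.72 (adjusted p = 0.0318), H2-DMa -0.73 (0.0396), H2-Ab1 -1.97 (0.0396) and H2-Aa -1.996 (0.0459), lower in SAMHD1 KO. Cd74, at -1.86, had an adjusted p of 0.0592 in the authors' deposited table. No member passed in its other 6 comparisons, where the authors called 0.196% (SAMHD1 KO with WT), 0.158% (MDA5 KO with WT), 8.85% (RIG-I KO with WT), 1.76% (SAMHD1 MDA5 DKO with WT), 16.1% (SAMHD1 RIG-I DKO with WT) and 15.0% (SAMHD1 KO with SAMHD1 RIG-I DKO) of the genes. SAMHD1 MDA5 DKO library 1 carried much of the difference. Without it, the limma log2 fold changes of SAMHD1 MDA5 DKO against SAMHD1 KO were 0.36 for H2-DMb1, 0.31 for H2-DMa, 0.84 for H2-Ab1, 0.70 for H2-Aa and 0.51 for Cd74, with adjusted p from 0.237 to 0.606, and that of Ciita was -0.26. Without the libraries labelled SAMHD1 KO 2 and SAMHD1 MDA5 DKO 3, in which Samhd1 was intermediate, they were 0.57, 0.57, 1.30, 1.26 and 1.11 in the same order. Without WT library 3, a library of neither group, H2-DMb1 passed by limma (adjusted p = 0.0316), as did 11.1% of all genes (0.121% with it).

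In SAMHD1 RIG-I DKO against SAMHD1 KO no member was called, although 10.5% of all genes were. Member log2 fold changes ran from -0.33 (Ciita) to 0.77 (H2-Ab1), with a median of 0.21 and 7 of 8 positive, against -0.035 over all genes. The median was 0.044 without the library labelled SAMHD1 KO 2 and 0.39 without SAMHD1 KO library 1. The smallest adjusted p was 0.423 (H2-Ab1, limma). No member was separate in this comparison, nor in RIG-I KO or MDA5 KO against WT, where 18.6%, 13.0% and 1.09% of all genes were.

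**Figure D2:**
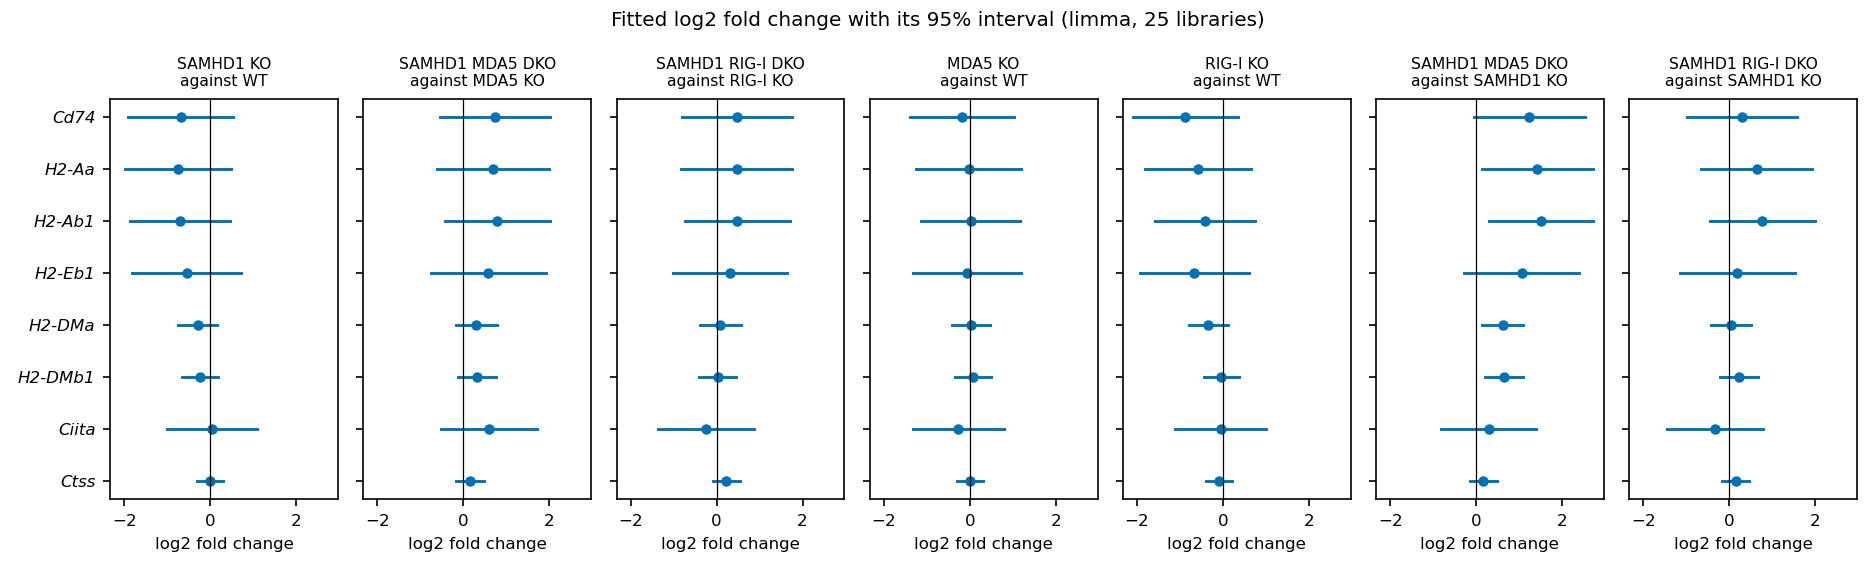
Fitted log2 fold change of each member (points) with its 95% interval (lines) in the 7 comparisons. Intervals of the chains and Cd74 span more than 2 log2 units, those of H2-DMa, H2-DMb1 and Ctss are narrow, and the values of Cd74, the chains and the H2-DM genes lie farthest to the right in SAMHD1 MDA5 DKO against SAMHD1 KO.

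Within genotypes, the SD on the log2 scale was 0.93 for Cd74, 0.94 for H2-Aa, 0.89 for H2-Ab1, 0.97 for H2-Eb1 and 0.81 for Ciita. The median over all 13252 genes was 0.22. H2-DMa (0.34), H2-DMb1 (0.32) and Ctss (0.22) were closer to it. Among the 4767 genes with a mean normalized count of at least 1000, the median SD was 0.16, and 9 genes had a larger SD than Cd74. The chains and Cd74 were thus among the most variable of the abundant transcripts between libraries of 1 genotype, whereas Ctss was at the 72.8th percentile. Spread also differed by genotype. In SAMHD1 RIG-I DKO the 4 Cd74 values were within 1.49-fold, in RIG-I KO and SAMHD1 KO within 2.13-fold and 2.16-fold, and in MDA5 KO, WT and SAMHD1 MDA5 DKO within 3.93-fold, 7.56-fold and 9.79-fold.

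**Figure D3:**
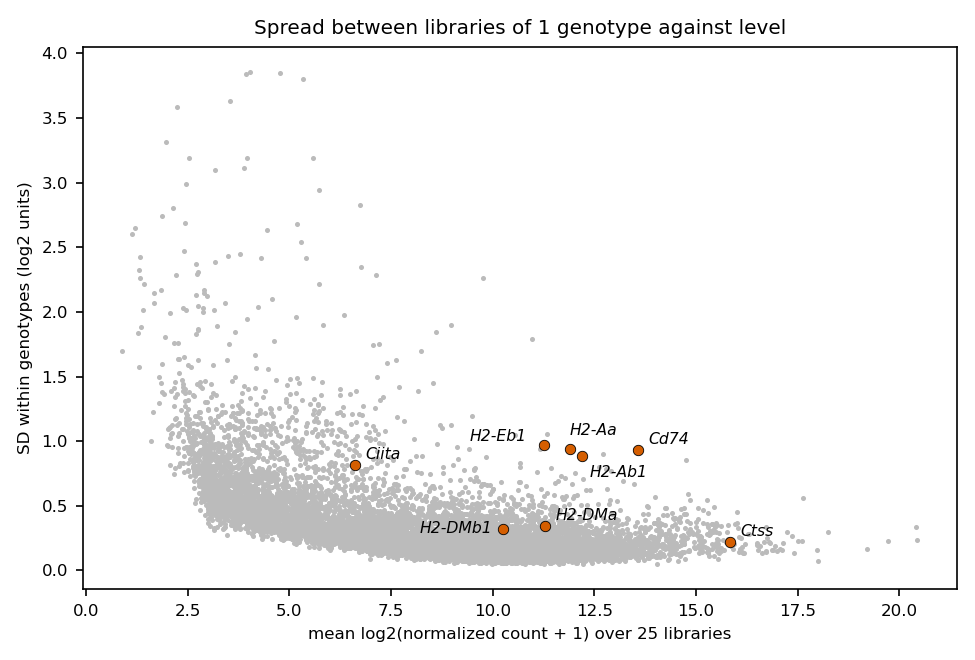
SD within genotypes (log2 units) against mean log2(normalized count + 1) for all genes tested (grey) and the 8 members (orange). Cd74, H2-Aa, H2-Ab1 and H2-Eb1 sit between 0.89 and 0.97, far above most genes of their level, and Ctss sits at 0.22.

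The members rose and fell together from library to library. Cd74 correlated with H2-Aa (Pearson r = 0.98, Spearman rho = 0.92), H2-Eb1 (0.97 and 0.90), H2-Ab1 (0.96 and 0.91), H2-DMa (0.92 and 0.77), Ciita (0.82 and 0.78), H2-DMb1 (0.81 and 0.59) and Ctss (0.62 and 0.59) over the 25 libraries. All 14 coefficients passed a two-sided permutation test, adjusted over 12 relations, with adjusted p from 2e-05 to 0.00489. The smallest p these permutations can give is 1e-05. Leaving out the 2 libraries farthest from the median of Cd74, SAMHD1 MDA5 DKO 1 and WT 5, left r at 0.96, 0.94, 0.89, 0.83, 0.75, 0.65 and 0.44 in the same order. The last of these no longer passed the permutation test (adjusted p = 0.0534), so the call for Ctss by r was not kept with fewer libraries. Its rho over the 25 libraries had an adjusted p of 0.00399 by permutation test. Centred on genotype means, r was 0.99, 0.97, 0.97, 0.91, 0.90, 0.80 and 0.61. The libraries share depth and preparation, and the relations describe these libraries.

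Within a library, the ratio of the paired chains varied little. H2-Aa over H2-Ab1 lay between 0.642 and 0.984, a 1.53-fold range, although each chain alone ranged over 17.9-fold and 19.3-fold. H2-DMa over H2-DMb1 ranged over 1.45-fold. Cd74 over H2-Ab1 ranged over 2.15-fold and H2-Eb1 over H2-Ab1 over 2.10-fold. The ratio of Ctss to Cd74 moved by 12.7-fold, from 0.802 in SAMHD1 MDA5 DKO library 1 to 10.2 in RIG-I KO library 2.

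Other genes of the pathway were read beside the members. Of all genes tested, 5.92% had their highest level in SAMHD1 MDA5 DKO library 1. A short list can thus hold none by its size alone. Of the other class II pathway genes listed, 11 were measured, and none had its highest level in SAMHD1 MDA5 DKO library 1. They include the exchange inhibitor chain H2-Ob, the lysosomal reductase Ifi30, and the proteases Lgmn, Ctsl, Ctsb, Ctsd and Ctsh. In that library Ctsb, the cathepsin B gene, had 127366 normalized counts, within its range of 81721 to 144317 over all libraries, and Ctsd had 134898 (100488 to 149557). H2-Ob had 196 in SAMHD1 MDA5 DKO library 1, 276 (its highest) in WT library 5 and 177 in MDA5 KO library 4. Its median was 142. H2-DMb2 had 96.7, 165 and 124 in the same order, against a median of 70.6. Lgmn was below its median in SAMHD1 MDA5 DKO library 1 (19132 against 21488). One of the 11, H2-DMb2, passed in the test across genotypes (adjusted p = 0.00799), with log2 fold changes of -1.20 ± 0.29 in RIG-I KO against WT (adjusted p = 0.0259, limma) and -1.38 ± 0.31 in SAMHD1 RIG-I DKO against SAMHD1 KO (adjusted p = 0.0148). It was the 1 gene of the 11 to pass in any of these comparisons. Of all genes tested, 9.87% passed across genotypes, 4.21% in RIG-I KO against WT and 10.5% in SAMHD1 RIG-I DKO against SAMHD1 KO. For a list of 11 genes, 1 call is thus no result about the list. The median log2 fold change of the 11 was between -0.053 and 0.058 in the 7 comparisons.

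The factors of the class II promoter were read the same way. All 7 were measured, namely Rfx5, Rfxap and Rfxank, which bind the X box, Nfya, Nfyb and Nfyc, which bind the Y box, and Creb1. None peaked in SAMHD1 MDA5 DKO library 1, where 5.92% of all genes tested did, so with so few genes the count says little. Nfyc alone passed, with log2 fold changes of -0.22 ± 0.060 in RIG-I KO against WT (adjusted p = 0.0421, limma) and -0.23 ± 0.063 in SAMHD1 RIG-I DKO against SAMHD1 KO (adjusted p = 0.0274). Of all genes tested, 4.21% passed in the first of these comparisons and 10.5% in the second. In the interferon gamma pathway above Ciita, the transcription factor Irf1 peaked in SAMHD1 MDA5 DKO library 1 (5933 normalized counts, against a median of 2903). Of the receptor chains, Ifngr1 (5194 against 5035) was near its median there. Ifngr2 (1799 against 1553) was above its median, in the upper part of its range of 1162 to 1873. Jak1, a receptor kinase, passed in the test across genotypes (adjusted p = 0.0389), as did 9.87% of all genes, and in none of the 7 comparisons.

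Interferon-gamma-responsive genes, such as the GTPases Gbp2, Igtp and Iigp1, were high in SAMHD1 MDA5 DKO library 1 and much less so in WT library 5. All 13 measured had their highest level in SAMHD1 MDA5 DKO library 1, as did 5.92% of all genes tested. Their summed normalized counts there were 43266, against 12449 to 21980 in the other 24 libraries and 18077 in WT library 5. The last was the highest sum among WT libraries, and the median over all libraries was 16573. Most of the 13 genes were above their medians in WT library 5, though Gbp2 was not. Gbp2 stood at 5579 in SAMHD1 MDA5 DKO library 1, 2178 in WT library 5 and a median of 2184. Iigp1 stood at 4359, 815 and 696. So the 2 libraries with the most Cd74 differed in these genes. The list's mean log2 value correlated with Cd74 (r = 0.60, adjusted p = 0.00941, permutation test, and r = 0.70 centred on genotype means). However, rho was 0.37 (adjusted p = 0.0923, permutation test), and r was 0.15 without SAMHD1 MDA5 DKO 1 and WT 5. The relation thus rests on those libraries.

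MHC class I genes, which present peptides from inside the cell, went partly with the members. Of 9, 8 peaked in SAMHD1 MDA5 DKO library 1, as did 5.92% of all genes tested. The exception was Nlrc5, the class I co-activator, with 1366 normalized counts there against a median of 845. Its highest level (2018) was in the library labelled SAMHD1 KO 2, as was that of 21.66% of all genes tested. In SAMHD1 MDA5 DKO library 1, WT library 5 and over all libraries as a median, B2m had 89167, 77086 and 56715 normalized counts, and Tapbp had 26470.0, 26213 and 19271. Tap1 had 5718, 3228.0 and 2452. WT library 5 was near SAMHD1 MDA5 DKO library 1 for B2m and Tapbp and lower for Tap1. Among all genes with a symbol other than the members, the 10 whose values followed H2-Aa, H2-Ab1, H2-Eb1 and Cd74 most closely within genotypes (mean r over 25 libraries) were Tmco4 (0.844), Slco3a1 (0.828), Fgl2 (0.822), Tapbp (0.813), Tap1 (0.811), Tap2 (0.811), Taco1 (0.803), B2m (0.802), H2-T23 (0.799) and Tpst1 (0.797). All 10 had their highest level in SAMHD1 MDA5 DKO library 1. Their choice by correlation with genes that peak in that library makes this likely beforehand, so it is no separate result. Costimulatory ligands gave a mixed picture. Of 5 measured, only Cd274 peaked in that library (579 normalized counts, median 232), and Cd86 and Cd40 were there below their medians (1418 against 1611 and 678 against 1009).

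Markers of other class II-bearing cells were read beside these values. The 10 measured B cell markers, Pax5 and Ms4a1 among them, had summed normalized counts of 136 to 2436 in WT, 368 to 4360 in SAMHD1 KO, 774 to 1575 in MDA5 KO and 263 to 738 in SAMHD1 MDA5 DKO. The sums were 67.1 to 86.1 in RIG-I KO libraries and 72.8 to 93.5 in SAMHD1 RIG-I DKO libraries, and 9 of the 10 were called lower where RIG-I KO was compared with WT and where SAMHD1 RIG-I DKO was compared with SAMHD1 KO (limma). In those 8 libraries Cd74 was between 4999 and 13575 and H2-Ab1 between 2678 and 6189. SAMHD1 MDA5 DKO library 1 had a B cell sum of 673 against a median of 643 over all libraries. None of the 10 markers peaked there, as against 5.92% of all genes tested. Within WT, SAMHD1 KO and MDA5 KO the highest sums were in WT library 5 (2436), SAMHD1 KO library 1 (4360) and MDA5 KO library 4 (1575). These were also the libraries with the most Cd74 in those genotypes. In SAMHD1 MDA5 DKO, RIG-I KO and SAMHD1 RIG-I DKO the highest sums were in libraries 2, 3 and 3, none with the most Cd74. The B cell score correlated with Cd74 at r = 0.34 (adjusted p = 0.111) and rho = 0.36 (adjusted p = 0.0923, permutation tests). Centred on genotype means, r was 0.41, a value that was not tested.

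None of the 6 measured dendritic cell markers peaked in SAMHD1 MDA5 DKO library 1, where 5.92% of all genes tested did. Flt3 and Itgax, markers of conventional dendritic cells, had 2.08 and 3.12 normalized counts there, and Itgax was highest in WT library 5 at 48.9. The dendritic cell score correlated with Cd74 at r = 0.25 (adjusted p = 0.226). The small peritoneal macrophage and monocyte score had r = 0.39 (adjusted p = 0.0773) and rho = 0.57 (adjusted p = 0.00486), and without SAMHD1 MDA5 DKO 1 and WT 5 its r was 0.54 (adjusted p = 0.0166, permutation test). Of its 11 measured genes, Plac8 alone peaked in SAMHD1 MDA5 DKO library 1 (1533 normalized counts, median 84.7), where Ccr2 (127) and Mgl2 (125), markers of recruited and small macrophages, were at their lowest. The large peritoneal macrophage score had r = 0.30 (adjusted p = 0.164, permutation test). Centred on genotype means, r was 0.42 for the dendritic cell, 0.51 for the small and 0.42 for the large peritoneal macrophage score. These centred values were not tested. What part cells of other types had in the members' levels was not tested beyond these values. Of the mast cell markers, 5 were measured and 4 were called lower in RIG-I KO against WT, and of T cell and of neutrophil and eosinophil markers only 3 and 2 were measured.

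**Figure D4:**
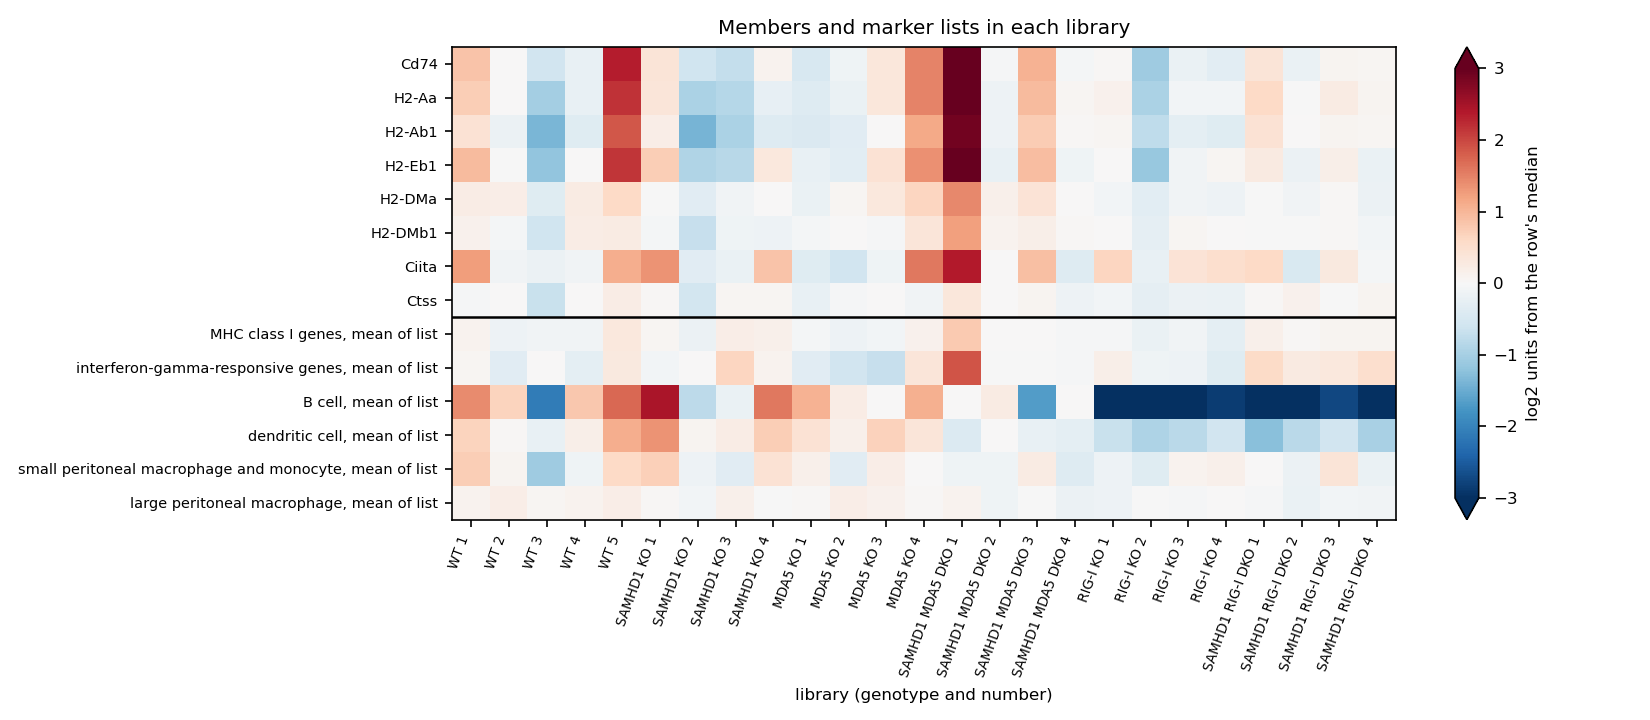
Members (top 8 rows) and the mean of each marker list (lower rows) in every library, in log2 units from the row's median, with red for higher and blue for lower. SAMHD1 MDA5 DKO 1 is red in all members, MHC class I genes and interferon-gamma-responsive genes, WT 5 is red in the members and the B cell list, and the 8 libraries without RIG-I are blue in the B cell list.

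**Figure D5:**
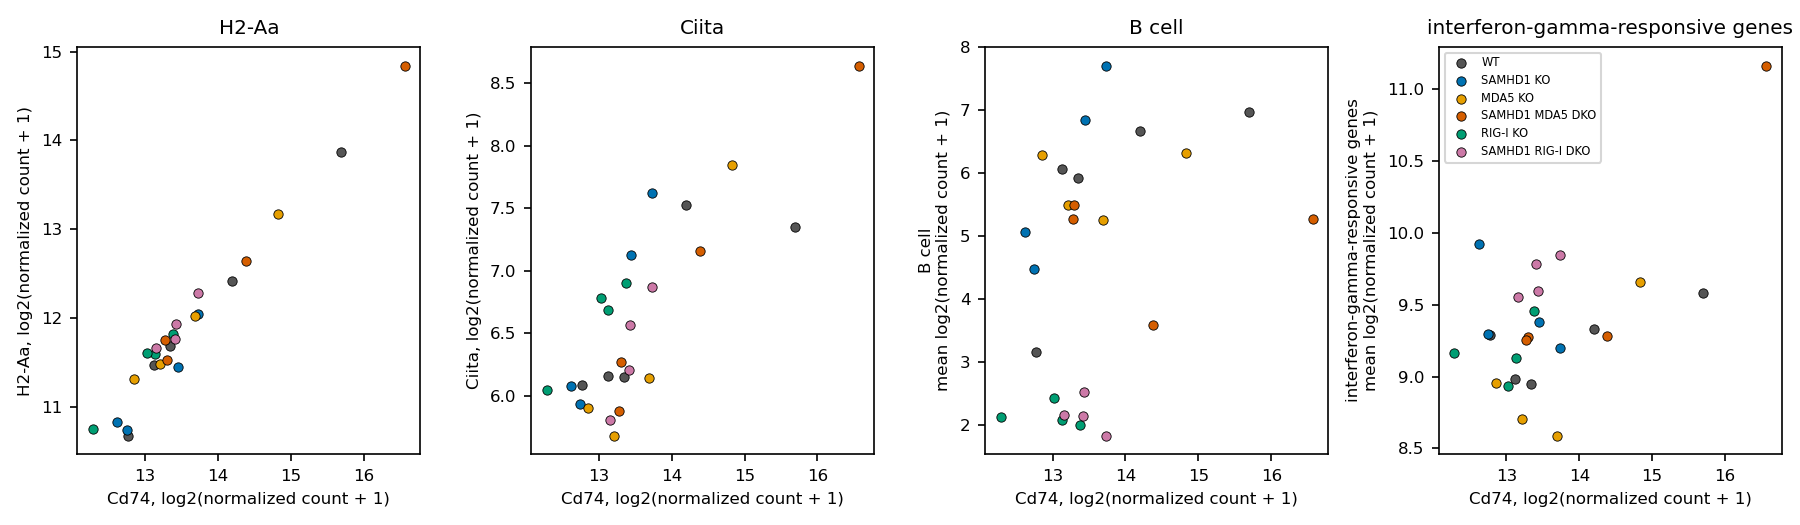
Cd74 (horizontal axis, log2 of normalized count + 1) against H2-Aa, Ciita and the mean log2 values of the B cell and interferon-gamma-responsive lists, with 1 point per library coloured by genotype. H2-Aa follows Cd74 over the whole range (r = 0.98), and the interferon-gamma-responsive list has 1 library far above the rest.

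Setting the B cell score as a covariate changed calls. With it, H2-Aa, H2-Ab1, H2-Eb1, H2-DMa and H2-DMb1 passed in SAMHD1 MDA5 DKO against SAMHD1 KO (log2 fold changes 1.92, 2.05, 1.65, 0.78 and 0.84), where 29.5% of all genes then passed. In SAMHD1 RIG-I DKO against SAMHD1 KO, H2-Ab1 (2.63), H2-DMb1 (0.92) and Ctss (0.67) passed, against 33.3% of all genes. The members in RIG-I KO against WT turned from a median of -0.38 to 0.81, with no call. B cell scores of the 8 libraries without RIG-I (1.83 to 2.53) lay wholly below those of the other 17 (3.16 to 7.71), so in those comparisons the score and the genotype cannot be told apart.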

How the data were processed

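RNA-seq was made by the submitters from peritoneal macrophages of 25 libraries, and all of them entered each fit unless a result names those left out. Per the submitters' processing notes, STAR, Salmon, R 4.1.2 and DESeq2 were used with GRCm38 and mm10, while the labels' protocol names pBWA and bedtools with an Ensembl annotation, so which of them made the values, and whether strand was used, is not settled. The deposited table holds variance-stabilized log2 values per library, made by the authors. It also holds, per the file headers, a mean of normalized counts per genotype (signal that is never negative) and the authors' log2 fold changes with their p-values and adjusted p-values.

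The log2 values were turned back into normalized counts by inverting the transformation (floor 5.8066). The means then equalled the deposited ones to a relative difference of 8.47e-14, and 100.0% of values were whole reads within 0.01 once scaled by library. Since the values per library were deposited on a log scale, the main test was limma 3.58.1 (trended, robust) in R 4.3.3 on log2(normalized count + 1), with genotype as the only factor. Fold changes are on that scale, which understates changes of low genes. Genes needed 10 normalized counts in at least 4 libraries, which left out 14 of the table's genes. Adjusted p-values are Benjamini-Hochberg over all 13252 genes tested. Correlations used 100000 permutations. The fit was tested on simulated counts with known changes. Promoters came from RefSeq and gene positions from the GRCm38 annotation.

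The members and lists were chosen with earlier results of these data known. Non-member genes are named if they belong to a list, or are among the 10 most alike by mean correlation within genotypes. Alternatives were another pseudocount, no filter, the log2 values as deposited, voom with trimmed-mean scaling, left-out libraries, a B cell covariate and fits of only the genotypes compared. Replicates differed by more than sampling noise (chi-square per degree of freedom 13.1 to 210.9), so none was merged.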

Additional observations from a re-analysis of the deposited data

Results flagged for a closer look

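In 48 groups (each member in each genotype), 6 held a library far from the others by Dixon's criterion, which by chance marks about 1 group in 20. H2-Ab1 was high in SAMHD1 RIG-I DKO library 1 (6188.93 normalized counts). H2-Eb1 was low in RIG-I KO library 2 (973.77). H2-DMb1 was low in the library labelled SAMHD1 KO 2 (751.47) and high in SAMHD1 MDA5 DKO library 1 (2873.46). Ctss was low in WT library 3 (38476.76) and in the library labelled SAMHD1 KO 2 (42025.3), the libraries that stood apart on the first axis of the principal component analysis.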

How the results depend on the processing

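No paired analysis was possible because the columns carry no replicate number that matches the titles. Leaving out WT 5 with SAMHD1 MDA5 DKO 1, and the correlations without the libraries farthest from the median, were chosen after seeing the data. Where a value changed, the cause was not tested. Of the fold changes recomputed, 888 kept direction and call, 8 gained a call and 80 changed sign, and 263 F tests kept their call while 1 gained it.

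Genes called across genotypes numbered 1308, and 666 to 2178 leaving out 1 library, 2924 without WT 3 and SAMHD1 KO 2, 2900 with the B cell covariate (with 1 member, H2-DMb1) and 712 without WT 5 and SAMHD1 MDA5 DKO 1. SAMHD1 KO against WT had 2 calls (0 to 9 leaving out 1 library, 4 with pseudocount 4, 5 with the deposited log2 values, 5 with voom, 1 without WT 3 and SAMHD1 KO 2, 12 without WT 5 and SAMHD1 MDA5 DKO 1, 1 with only those genotypes). SAMHD1 MDA5 DKO and MDA5 KO had 1 (0 to 8, then 6 without WT 3 and SAMHD1 KO 2, 9 without SAMHD1 KO 2 and SAMHD1 MDA5 DKO 3, 6 with the covariate, 0 without WT 5 and SAMHD1 MDA5 DKO 1 and 0 with only those genotypes). SAMHD1 RIG-I DKO and RIG-I KO had 9 (0 to 13, 18 without WT 5 and SAMHD1 MDA5 DKO 1, 68 with only those genotypes). MDA5 KO against WT had 9 (2 with only those genotypes). RIG-I KO against WT had 558 (78 to 1253, 2087 without WT 3 and SAMHD1 KO 2, 975 without SAMHD1 KO 2 and SAMHD1 MDA5 DKO 3, 3359 with the covariate, 132 without WT 5 and SAMHD1 MDA5 DKO 1, 1 with only those genotypes). SAMHD1 MDA5 DKO and SAMHD1 KO had 16 (8 to 1465, the highest without WT 3, 9 with voom, 534 without WT 3 and SAMHD1 KO 2, 6 without SAMHD1 KO 2 and SAMHD1 MDA5 DKO 3, 3915 with the covariate, 4 with only those genotypes). SAMHD1 RIG-I DKO and SAMHD1 KO had 1388 (188 to 2177, 2122 without WT 3 and SAMHD1 KO 2, 548 without SAMHD1 KO 2 and SAMHD1 MDA5 DKO 3, 4417 with the covariate, 546 with only those genotypes).

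Members called in SAMHD1 MDA5 DKO and SAMHD1 KO rose from 0 to 5 with the covariate (0 to 1 leaving out 1 library), and in SAMHD1 RIG-I DKO and SAMHD1 KO from 0 to 3. The covariate moved member medians from -0.38 to 0.81 in RIG-I KO against WT and from 0.21 to 1.39 in SAMHD1 RIG-I DKO and SAMHD1 KO.

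Sign changes were among small or unresolved log2 fold changes. In SAMHD1 KO against WT, Ctss ranged from -0.15 to 0.14 leaving out 1 library, with 0.14 without SAMHD1 KO 2 and SAMHD1 MDA5 DKO 3 and 0.073 without WT 5 and SAMHD1 MDA5 DKO 1, and Ciita from -0.28 to 0.29, with -0.058 with the covariate. In SAMHD1 MDA5 DKO and MDA5 KO, H2-Aa ranged from -0.026 to 1.08, H2-Eb1 from -0.12 to 0.95 and H2-DMa from -0.0095 to 0.46, each lowest without SAMHD1 MDA5 DKO 1. In SAMHD1 RIG-I DKO and RIG-I KO, H2-DMb1 ranged from -0.048 to 0.064. In MDA5 KO against WT the ranges were -0.58 to 0.29 (Cd74), -0.42 to 0.43 (H2-Aa), -0.34 to 0.46 (H2-Ab1), -0.45 to 0.38 (H2-Eb1), -0.12 to 0.16 (H2-DMa), -0.066 to 0.15 (H2-DMb1) and -0.13 to 0.090 (Ctss). H2-DMa was at -0.11 there without WT 3 and SAMHD1 KO 2, and H2-Ab1 at -0.020 with the covariate. In RIG-I KO against WT the covariate gave 0.48 (Cd74), 1.02 (H2-Aa), 1.32 (H2-Ab1), 1.23 (H2-Eb1), 0.16 (H2-DMa), 0.60 (H2-DMb1), 1.22 (Ciita) and 0.40 (Ctss). Leaving out 1 library there gave -0.78 to 0.030 (H2-Ab1), -0.18 to 0.038 (H2-DMb1) and -0.19 to 0.17 (Ciita), and without WT 5 and SAMHD1 MDA5 DKO 1 H2-DMb1 was at 0.029 and Ciita at 0.12. In SAMHD1 MDA5 DKO and SAMHD1 KO, Ciita ranged from -0.26 to 0.66, with -0.014 without SAMHD1 KO 2 and SAMHD1 MDA5 DKO 3. In SAMHD1 RIG-I DKO and SAMHD1 KO, H2-Eb1 ranged from -0.050 to 0.49 and H2-DMa from -0.034 to 0.079, and Ciita was at 1.03 with the covariate.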
